A study of Mus musculus with 3 samples.

Results

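Gene expression was compared between C2C12 myotubes kept in medium from a pancreatic cancer cell line with resveratrol added and C2C12 myotubes kept in plain culture medium. The comparison used the deposited FPKM of the control library and of the resveratrol library, and took every locus with a mean FPKM of 1 or more over the 3 libraries of the study, which were 11858 of 24401 loci (48.6%). FPKM divides the fragments of a locus by its length and by the size of the library. Ratios between libraries still depend on how the libraries were scaled, as described below. RNA was measured by sequencing. C2C12 is a line of mouse myoblasts. All 3 cultures had been grown with 10% fetal bovine serum and then differentiated with 2% horse serum plus 1 µg/ml of insulin over 72 hours. Control cells then had DMEM for 24 hours. The resveratrol cells had, for 24 hours, medium conditioned over 24 hours by S2-013 cells, a human pancreatic cancer line, to which 50 µM resveratrol had been added. The third culture had the conditioned medium alone, and its values are given beside the others. The labels give myoblast as the cell type of all 3, although the cells had been differentiated. Neither the solvent of resveratrol nor the serum level during the last 24 hours is stated in the labels, and cells given resveratrol without conditioning were not analysed here. The comparison therefore sets conditioning and resveratrol together against control, and the share of each cannot be told apart by it alone.

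Each medium had 1 library. No difference below has a replicate check, an SD or a p-value, and every statement compares these libraries and not the conditions in general. Differences are given as the log2 ratio of FPKM + 1, resveratrol over control, which understates the change of genes with low values. A gene is called higher or lower when this ratio is 1 or more, or -1 or less (the size rule). Values of a gene are listed in the order control, conditioned medium, conditioned medium with resveratrol. Depth is unknown, since FPKM carries no read count.

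Resveratrol is a plant polyphenol studied for its actions on sirtuins, on the aryl hydrocarbon receptor, on antioxidant defence and on cell division. Tumour-conditioned medium carries cytokines of the IL-6 family and other factors that act on muscle through JAK-STAT3 and NF-κB, and in culture it is used as a model of the muscle wasting of cancer. Myotubes are fused, post-mitotic fibres, and a C2C12 culture also holds mononucleated cells that have not fused and that can keep dividing or remain as reserve cells.

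Myotube markers were present in all libraries. All 12 markers listed for myotubes passed the filter on low values, and 0 of them passed the size rule, with a median log2 ratio of 0.22. Skeletal alpha actin, Acta1, stood at 1568, 1496 and 2272 FPKM. The myogenic factor Myog stood at 384, 313 and 596 FPKM. Both were highest with resveratrol and lowest in conditioned medium alone. The 12 markers did not move together: 8 had ratios above 0 and 4 below. Resveratrol was the lowest of the 3 libraries in 4 of the 12, among them Casq1, given below. Of 16 leukocyte markers, 9 were at 0 in all 3 libraries, among them Ptprc and Adgre1, and 13 were below 1 FPKM in each. Endothelial and epithelial markers were mostly below 1 FPKM as well, 8 of 10 and 11 of 13, and the keratin gene Krt18 and the claudin genes Cldn7 and Cldn18 were at 0 in all 3 libraries. The adipocyte marker Adipoq stood at 0, 0.0554 and 0 FPKM, and Fabp4, also of adipocytes, was below 1 FPKM in each library. Of the 11858 loci, 2984 share their listed span with another locus, and 957 of the 11211 genes with a single symbol hold a small RNA gene whose fragments their FPKM may include, with a median log2 ratio of -0.084. Named genes with a shared span are not all marked below. Fam65a, Wisp1, Ccna2, Cebpd, Nfkbia, Nqo1 and H2-Q4 are among the unmarked ones.

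By the size rule, 427 of 11858 loci (3.6%) were higher with resveratrol in conditioned medium than in control, and 622 (5.25%) were lower. Among the 11211 genes with a single symbol, on which all gene lists below rest, 384 (3.43%) were higher and 545 (4.86%) lower. These percentages are the background against which the counts of each list stand. In the library with conditioned medium alone, which shares its control, the same rule gave 235 loci higher than control (1.98%) and 89 lower (0.751%). The median absolute log2 ratio was 0.33 for resveratrol in conditioned medium and 0.22 for conditioned medium alone. The median log2 ratio of all loci was 0.0002, with 5931 above 0 and 5919 below. The balance of calls depended on how the libraries were scaled. Higher loci were 40.7% of the calls as deposited, 59.9% after rescaling to TPM over all loci, and 25.8% after rescaling to TPM over loci longer than 200 bases. Those scalings moved the median of all loci to 0.18 and to -0.13, and the ratios below are relative to the median of the deposited scale.

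**Figure D1:**
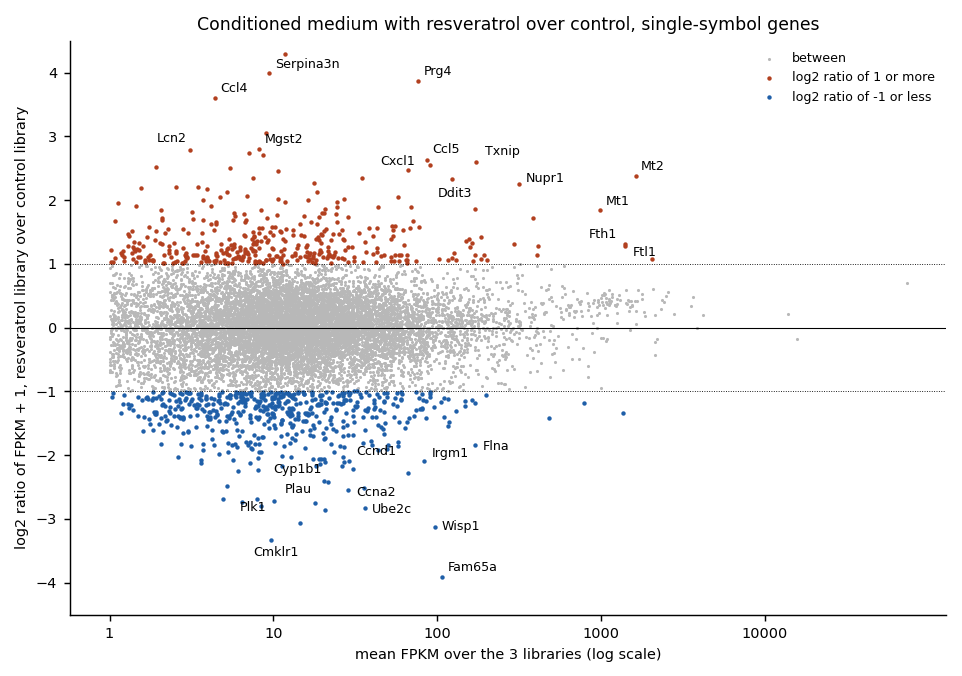
Log2 ratio of FPKM + 1, resveratrol library over control library (vertical axis), against the mean FPKM of the 3 libraries (horizontal log axis) for single-symbol genes, 1 point per gene. Red points are the 384 genes with a ratio of 1 or more and blue points the 545 with a ratio of -1 or less. Mt1, Mt2, Fth1 and Ftl1 lie among the most abundant genes, and 12 small RNA genes lie outside the axis.

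Genes near the edges of both rules show how fine they are. Phkg1, just inside the filter on low values, had 0.717, 0.750 and 1.54 FPKM. Eps8l2, just outside it, had 0.769, 1.39 and 0.833 FPKM. Tmem53 was just inside the size rule with 7.09, 12.1 and 15.2 FPKM. Fas, whose span holds a small RNA gene, was just outside with 9.96, 24.1 and 20.9 FPKM. On the lower side Cr1l was just inside with 41.4, 31.4 and 20.2 FPKM. Hnrnpm was just outside with 107, 73.4 and 53.1 FPKM.

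The 15 highest and 15 lowest ratios are described with predicted models and small RNA genes set aside. Serpina3n, an acute phase inhibitor of serine proteases (chr12:104406708-104414330, mm10), was listed at 0 in control, at 13.4 FPKM in conditioned medium and at 14.9 FPKM with resveratrol. Prg4, which encodes lubricin, a lubricating glycoprotein (chr1:150361311-150466230), stood at 7.12, 103 and 118 FPKM (log2 ratio 3.87). Ccl4, a macrophage chemokine (chr11:83662584-83664683), stood at 0.115, 0.504 and 12.6 FPKM (log2 ratio 3.6). Serpina3n and Prg4 were thus already high with conditioned medium alone, whereas Ccl4 was high only in the library with resveratrol. Mgst2, a microsomal glutathione transferase, stood at 1.22, 8.79 and 14.5 FPKM. Lcn2, which binds iron-siderophore complexes, stood at 0.0778, 2.69 and 6.47 FPKM. Both showed a step from control to conditioned medium and a further one with resveratrol. Ccl5, a T cell chemokine (chr11:83525779-83530518), stood at 27.5, 56.3 and 175 FPKM (log2 ratio 2.63). Txnip, a glucose-responsive inhibitor of thioredoxin (chr3:96555768-96566801), stood at 48.4, 168 and 299 FPKM (log2 ratio 2.60). In both genes control was lowest and resveratrol highest. Cxcl1, a neutrophil chemokine, stood at 26.8, 83.4 and 162 FPKM. Mmp11, the matrix protease stromelysin-3, stood at 24.2, 36.4 and 139 FPKM. Slpi, an inhibitor of leukocyte elastase whose span holds a small RNA gene, stood at 3.04, 7.92 and 21.2 FPKM. These 3 genes had the order of Ccl5 and Txnip. The other genes among the 15 highest were the histone genes Hist1h4k, Hist1h4j and Hist1h2bg, and the non-coding Platr17 and Atcayos, the last of which lies antisense to a coding gene and cannot be told from it without strand. Txnip, Prg4, Hist1h2bg and Atcayos share their span with other loci, and near-identical histone copies can share reads.

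With the same genes set aside, the lowest ratio belonged to Fam65a (chr8:105566695-105622218), at 282, 21.7 and 17.8 FPKM (log2 ratio -3.91). Its span holds the microRNA gene Mir1966, whose fragments its FPKM may include. Cmklr1, the chemerin receptor (chr5:113611157-113655083), stood at 20.4, 7.47 and 1.12 FPKM (log2 ratio -3.33). Wisp1, a secreted matricellular protein (chr15:66876913-66923199), stood at 178, 92.3 and 19.5 FPKM (log2 ratio -3.12). Both were lower in conditioned medium than in control and lower again with resveratrol. Apol10b, an apolipoprotein L gene, stood at 28.7, 12.4 and 2.56 FPKM. G0s2, an inhibitor of the fat lipase ATGL, stood at 62.4, 34.3 and 10.1 FPKM. Gja5, which encodes a gap junction connexin, stood at 10.5, 3.46 and 0.786 FPKM. These too went down in the order control, conditioned medium, resveratrol. Dynap stood at 41.7, 15 and 4.88 FPKM and had the same order. Plau, the urokinase plasminogen activator (chr14:20836662-20843388), stood at 34.1, 25.3 and 5.58 FPKM (log2 ratio -2.42). Mrgprf, an orphan receptor gene, stood at 12.2, 12.2 and 0.904 FPKM. Nrep stood at 23.4, 28.0 and 2.65 FPKM. In Mrgprf and Nrep, and in the mitotic genes Ube2c, Plk1 and Ccna2 that are also among the 15 lowest, conditioned medium was level with control or above it and only the resveratrol library was low. Gper1, a membrane receptor for oestrogen that shares its span with 5 other loci, stood at 11.0, 7.45 and 0.794 FPKM. Fam167a stood at 11.0, 3.54 and 1.15 FPKM.

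Genes of mitosis had the largest share of lower members among the 42 lists of pathways. Of 40 listed mitotic cyclins, kinases and regulators, 39 were measured, all 39 had ratios below 0, 25 were lower by the size rule and 0 higher, and the median log2 ratio was -1.15. In all 39 the resveratrol library had the lowest FPKM of the 3, and their summed FPKM was 726, 966 and 286. Ube2c, a ubiquitin-conjugating enzyme that works with the anaphase-promoting complex (chr2:164769895-164772902), stood at 43.5, 59.9 and 5.29 FPKM (log2 ratio -2.82). Polo-like kinase 1, Plk1 (chr7:122159437-122169875), stood at 12.2, 17.1 and 1.02 FPKM (log2 ratio -2.71). Cyclin A2, Ccna2 (chr3:36552606-36571996), stood at 39.2, 40.2 and 5.85 FPKM (log2 ratio -2.55). In each of these the control and conditioned medium libraries were several times the resveratrol library. Prc1, which bundles spindle microtubules, stood at 23.2, 29.8 and 4.5 FPKM. The checkpoint target Cdc20 stood at 21, 33.1 and 4.26 FPKM. Cyclin B1, Ccnb1, stood at 26.1, 38.7 and 5.98 FPKM. All of these are genes of the late cell cycle, as is topoisomerase Top2a, with a small RNA gene inside it. Top2a stood at 47.4, 59.3 and 12.5 FPKM. Members at the weak end included Mki67, the proliferation marker Ki-67, at 15.8, 18.6 and 10.3 FPKM (log2 ratio -0.58), which did not pass the size rule. In a bulk culture, fewer dividing cells and less of these RNAs per dividing cell cannot be told apart.

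Promoters of mitotic genes are known for a CCAAT box and, nearer the start site, a cell cycle homology region with the letters TTTGAA or TTCGAA. To show this arrangement, the 120 bases before a RefSeq start site are printed for Ube2c and Prc1. They are the mitotic genes with the lowest ratios that have such a window with the cell cycle homology letters. Only windows with these letters were taken, and both reach past the listed start of the gene's span. Sequences are those of RefSeq on GRCm38.p6, 5′ to 3′ on the gene's strand, with CCAAT and cell cycle homology matches on either strand in capitals.
Ube2c, chr2:164769809-164769928, plus strand: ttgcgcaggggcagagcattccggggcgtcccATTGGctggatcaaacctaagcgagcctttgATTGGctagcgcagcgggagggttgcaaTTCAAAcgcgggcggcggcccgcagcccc
Prc1, chr7:80294356-80294475, plus strand: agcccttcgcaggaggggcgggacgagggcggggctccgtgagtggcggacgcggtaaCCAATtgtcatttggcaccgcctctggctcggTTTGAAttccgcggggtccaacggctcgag
The Ube2c window held CCAAT, read on the other strand, beginning 88 and 57 bases before the start site and the homology region beginning 29 bases before it. In the Prc1 window the CCAAT box began 62 bases and the homology region 30 bases before the start site. Over the 250 bases before the start site, searched on both strands, CCAAT was found in 29 of 37 windows of 35 mitotic genes (78.4%) and in 33.8% of all 32851 RefSeq windows. TTTGAA or TTCGAA was found in 13 of the 37 windows (35.1%) and in 17.1% of all windows. These are matches of letters and not sites of binding.

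Of the other cell cycle lists, that of S phase was also on the lower side, that of cell cycle exit was mixed, and histones were on the higher side. Of 37 measured genes of replication licensing and S phase, 8 were lower and 0 higher by the size rule, 33 had ratios below 0, and the median was -0.64. Thymidine kinase Tk1 stood at 27.4, 19.2 and 5.83 FPKM (log2 ratio -2.06). The E2F factor gene E2f2 stood at 13.8, 5.61 and 2.96 FPKM. In conditioned medium alone E2f2 was already far below control. The chromatin assembly subunit Chaf1a stood at 11.3, 6.4 and 3.78 FPKM. The licensing helicase subunit Mcm5 stood at 17.3, 7.70 and 7.20 FPKM. In Mcm5 both conditioned medium libraries were at nearly the same level. Summed FPKM of the S phase list was 695, 469 and 478. Of 18 measured regulators of the G1 phase and of cell cycle exit, 2 were lower (11.1%) and 1 higher (5.56%), with a median of -0.23. All single-symbol genes had 4.86% lower and 3.43% higher. In this list 7 ratios were above 0 and 11 below, and summed FPKM was 1324, 1363 and 1408. The lower genes were cyclin D1, Ccnd1 (chr7:144929931-144939925), at 43.8, 33.0 and 9.55 FPKM (log2 ratio -2.09), and the pocket protein gene Rbl1. Rbl1 stood at 9.33, 7.21 and 3.68 FPKM. The higher gene was the antiproliferative Btg1 at 38, 54.6 and 95.0 FPKM (log2 ratio 1.3). Cdkn1a, the p21 inhibitor that is abundant in myotubes, stood at 623, 575 and 717 FPKM and did not pass the rule. Of 13 measured replication-dependent histone genes, 11 were higher and 1 lower, with a median of 1.22. The median FPKM of these 13 was 0.996, 4.99 and 3.55, so many were near the floor in control. Such members can pass the filter through the other libraries, so these counts over measured members describe and do not support. The core histone gene Hist1h4h stood at 1.31, 4.27 and 8.56 FPKM. Hist1h2bc stood at 81.5, 173 and 215 FPKM. The lower member was Hist2h4, and in conditioned medium alone the median of the list against the same control was 1.41. Transcripts of this class lack a poly(A) tail in dividing cells, and near-identical copies can share reads, so single histone values are uncertain.

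**Figure D2:**
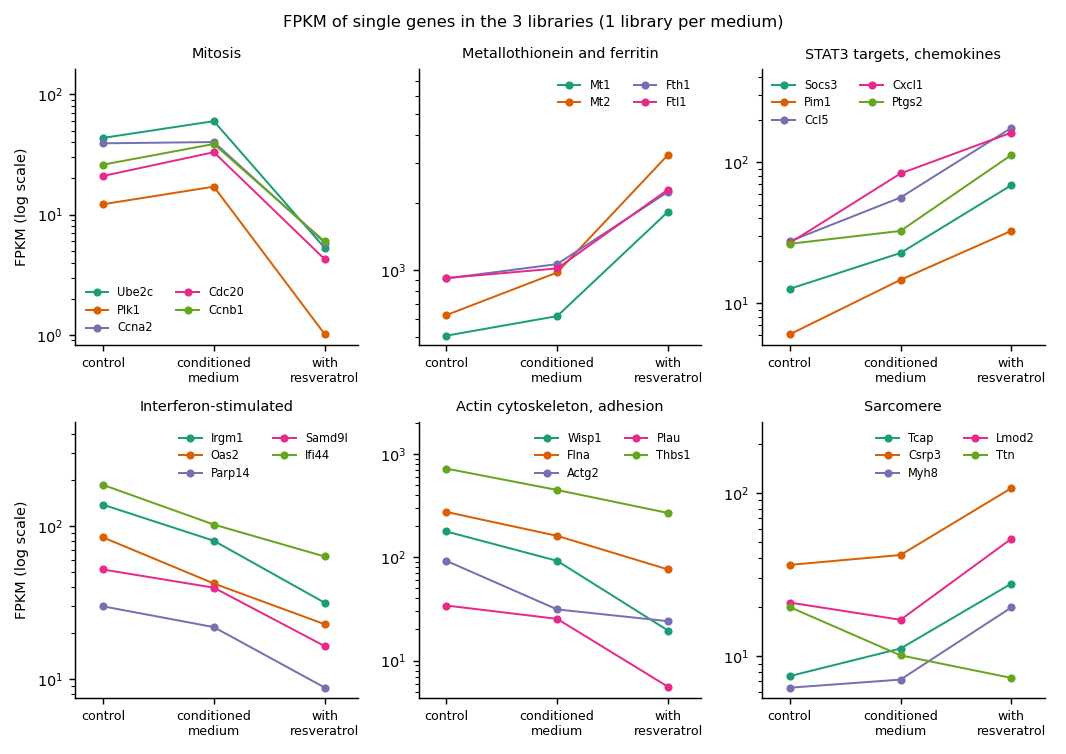
FPKM (vertical log axis) of 29 genes in the 3 libraries, 1 library per medium, in 6 panels by group; lines join the values of a gene. The mitotic genes are low only with resveratrol (Plk1 from 12.2 to 1.02), while the metallothionein, chemokine and most sarcomere genes shown are highest there.

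**Figure D3:**
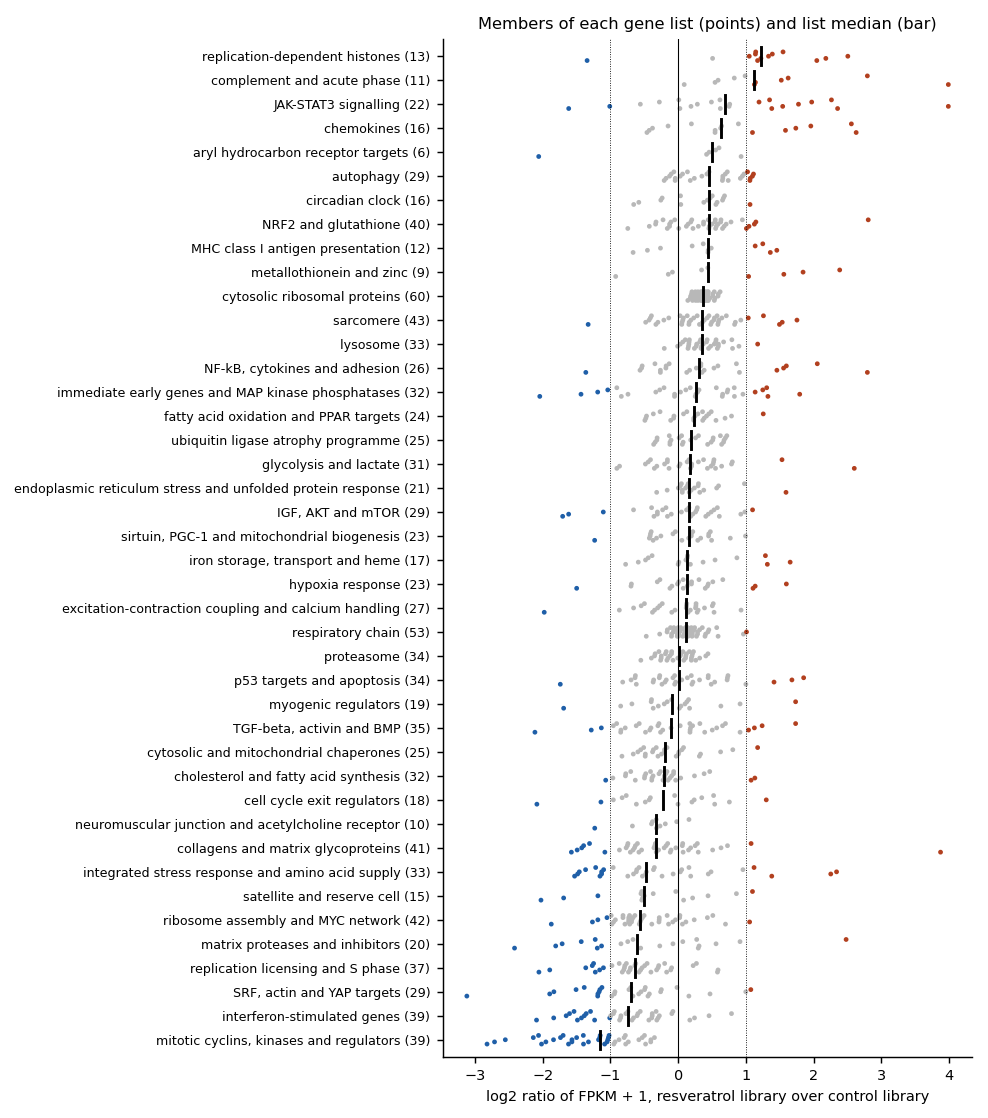
Log2 ratio of FPKM + 1, resveratrol library over control library (horizontal axis), for the measured members of 42 gene lists (points, orange at 1 or more, blue at -1 or less) with the list median as a bar and the number measured in brackets; dotted lines are the size rule. All 39 mitotic genes lie to the left of 0 and all 60 ribosomal protein genes to the right.

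Sarcomere genes lay on the higher side. Of 50 listed, 43 were measured, 34 had ratios above 0, and the median was 0.36. By the size rule 5 were higher (11.6%) and 1 lower (2.33%). Resveratrol was the highest of the 3 libraries for 32 of the 43. Telethonin, Tcap, which caps titin at the Z-disc (chr11:98383811-98384953), stood at 7.53, 11.1 and 27.8 FPKM (log2 ratio 1.75). The muscle LIM protein gene Csrp3 (chr7:48830398-48848051) stood at 36.2, 41.6 and 107 FPKM (log2 ratio 1.54). The perinatal myosin heavy chain gene Myh8 (chr11:67277124-67308633) stood at 6.4, 7.17 and 19.9 FPKM (log2 ratio 1.5). In these genes conditioned medium alone lay nearer to control than to resveratrol. The thin filament gene Lmod2 stood at 21.3, 16.7 and 52.3 FPKM. Nrap, of the myotendinous junction and the forming sarcomere, stood at 11.9, 14.2 and 25.5 FPKM and was the last of the 5 past the rule. Of other structural genes, the embryonic myosin Myh3 stood at 184, 158 and 192 FPKM. Desmin, Des, the intermediate filament of muscle, stood at 397, 433 and 602 FPKM. Neither Myh3 nor Des passed the rule. The exception was titin, Ttn, at 20.0, 10.1 and 7.34 FPKM (log2 ratio -1.33), the only sarcomere gene lower by the rule.

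Other muscle lists did not share this. Of 27 genes of excitation-contraction coupling and calcium handling, 0 were higher and 1 lower (3.7%, beside 4.86% of all single-symbol genes). The median of 0.12 turned to -0.023 with TPM over loci longer than 200 bases. The lower gene was parvalbumin, Pvalb, at 7.21, 5.77 and 1.09 FPKM (log2 ratio -1.98). Casq1, the calcium store protein of fast fibres, stood at 19.8, 17.9 and 10.4 FPKM. Stim1, the store calcium sensor, stood at 7.57, 10.9 and 15.3 FPKM. Casq1 was thus lowest and Stim1 highest with resveratrol, and neither passed the rule. Of 10 genes of the neuromuscular junction, 9 lay below 0 and the median was -0.32. By the rule 1 was lower (10.0%), the MuSK activator Dok7 at 13.6, 7.10 and 5.2 FPKM (log2 ratio -1.23). Rapsn, which clusters acetylcholine receptors, stood at 36.3, 27.3 and 22.4 FPKM and did not pass it. The 19 measured myogenic regulators had a median of -0.10, which turned positive with TPM over all loci (0.093) and without shared loci (0.017). By the rule 1 was higher and 1 lower (5.26% each, beside 3.43% and 4.86% of all single-symbol genes). Id3, an inhibitor of myogenic factors, was higher at 14.0, 22.4 and 48.7 FPKM (log2 ratio 1.73). The myoblast factor Myf5 was lower at 10.9, 9.23 and 2.69 FPKM (log2 ratio -1.69). Myod1, at 48.2, 28.2 and 51.7 FPKM, and Myog, given above, were lowest in conditioned medium and did not pass the rule. Among 15 satellite and reserve cell genes, 3 were lower (20.0%) and 1 higher (6.67%), with a median of -0.50. The Notch target genes Heyl and Hes1 were lower along with Myf5. Heyl stood at 5.26, 2.08 and 0.537 FPKM. Hes1 stood at 33.9, 25.5 and 14.4 FPKM. The surface proteoglycan gene Sdc4 was the higher member at 80.6, 117 and 174 FPKM. The part of these cells in the values of the mitotic genes was not tested.

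Genes of protein breakdown differed by pathway. Of 25 measured genes of the ubiquitin ligase atrophy programme, 0 passed the size rule in either direction, with a median of 0.18. The muscle ligase Fbxo32 (atrogin-1) stood at 11.6, 18.8 and 19.7 FPKM (log2 ratio 0.72). The ligase Trim63 (MuRF1) stood at 10.6, 21.2 and 17.5 FPKM (log2 ratio 0.67). Their regulator Foxo3 stood at 17.4, 31.6 and 27.4 FPKM (log2 ratio 0.62). In Fbxo32, Trim63 and Foxo3 both conditioned medium libraries stood above control, each by less than the size rule. Myostatin, Mstn, an inhibitor of muscle growth, stood below the filter at 0, 0.0632 and 0.0880 FPKM. Of 34 proteasome genes, 0 passed the rule and the median was 0.013, which turned to -0.14 with TPM over loci longer than 200 bases and to -0.059 when centred within bins of transcript length. Of 29 autophagy genes, 5 were higher and 0 lower, with a median of 0.45. Pink1, the kinase that marks damaged mitochondria, which holds a small RNA gene, stood at 21.2, 24.9 and 47.1 FPKM. Atg14, of the complex that starts autophagosomes, stood at 3.70, 4.78 and 9.05 FPKM. The LC3 gene Map1lc3b, whose product coats autophagosomes, stood at 78.4, 104 and 164 FPKM. The others were the LC3 gene Map1lc3a and Atg12, and each of the 5 had control lowest and resveratrol highest. Of 33 lysosomal genes, 31 had ratios above 0, with a median of 0.35. By the rule 1 was higher (3.03%, beside 3.43% of all single-symbol genes), the protease gene Ctsf at 4.11, 5.36 and 10.5 FPKM. Cathepsin B, Ctsb, stood at 119, 153 and 208 FPKM. Cathepsin D, Ctsd, stood at 380.4, 449.8 and 606 FPKM. Both had the same order of libraries as Ctsf and did not pass the rule.

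Stress genes lay on both sides. Of 33 genes of the integrated stress response and amino acid supply, 9 were lower and 4 higher, with a median of -0.48. The higher genes included the stress transcription factor Ddit3, also known as CHOP (chr10:127290793-127311786), at 46.6, 82.3 and 239 FPKM (log2 ratio 2.34). The stress-induced chromatin protein gene Nupr1 (chr7:126623246-126625490) stood at 129.8, 188 and 623 FPKM (log2 ratio 2.25). In both, resveratrol stood far above conditioned medium alone. Cebpb, a partner of CHOP, stood at 14.1, 14.9 and 38.5 FPKM. Ppp1r15a, which returns translation after stress, stood at 13.3, 23.7 and 30.1 FPKM. The lower genes included the serine synthesis enzyme Psat1 (chr19:15904664-15941537) at 176, 117 and 62.2 FPKM (log2 ratio -1.48). The mitochondrial folate enzyme Aldh1l2 stood at 54.2, 58.8 and 18.1 FPKM (log2 ratio -1.53). The stress hormone gene Fgf21 stood at 28.0, 42.2 and 9.54 FPKM (log2 ratio -1.46). Phgdh, Psph and Shmt2, which act in serine and glycine synthesis beside Psat1, were lower too. Phgdh, the entry enzyme, stood at 115, 78.2 and 52.1 FPKM. Atf4, which encodes the factor at the head of this response, stood at 271, 239 and 309 FPKM and did not pass the rule. Of 21 endoplasmic reticulum stress genes, 19 had ratios above 0, with a median of 0.16. By the rule 1 was higher (4.76%, beside 3.43% of all single-symbol genes). It was the co-chaperone gene Dnajb9 at 32.1, 33.7 and 98.7 FPKM (log2 ratio 1.59). Its chaperone partner Hspa5, BiP, stood at 394, 391 and 596 FPKM and did not pass it. Of 25 cytosolic and mitochondrial chaperone genes, 1 was higher (4.0%, near the 3.43% of all single-symbol genes) and 0 lower, with a median of -0.20. The higher one was the small heat shock protein gene Hspb8 at 89.2, 89.4 and 202 FPKM.

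Metallothioneins were among the abundant genes that passed the rule on the higher side. Of 9 measured metallothionein and zinc genes, 4 were higher and 0 lower, with a median of 0.44. Metallothioneins bind zinc and copper, and their transcription is driven by zinc through MTF-1. Mt2 (chr8:94172618-94173567) stood at 627, 973 and 3278 FPKM (log2 ratio 2.38). Mt1 (chr8:94179089-94180327) stood at 507, 620.1 and 1822 FPKM (log2 ratio 1.84). In both genes conditioned medium alone lay much nearer to control than to resveratrol. Slc39a14, a zinc importer, stood at 22.2, 25.8 and 67.5 FPKM (log2 ratio 1.56). Slc30a1, the zinc exporter, stood at 1.41, 3.29 and 3.96 FPKM (log2 ratio 1.04). Slc39a10, also a zinc importer, stood at 16.0, 21.2 and 7.96 FPKM and did not pass the rule.

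MTF-1 is known to bind metal response elements with the core TGCACNC or TGCGCNC. The 250 bases before the RefSeq start site of both metallothionein genes are printed to show these letters, in capitals, on either strand.
Mt1, chr8:94178839-94179088, plus strand: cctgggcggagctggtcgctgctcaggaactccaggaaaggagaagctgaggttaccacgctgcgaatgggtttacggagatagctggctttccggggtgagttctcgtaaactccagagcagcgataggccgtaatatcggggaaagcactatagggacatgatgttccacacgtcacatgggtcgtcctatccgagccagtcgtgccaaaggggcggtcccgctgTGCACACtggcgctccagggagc
Mt2, chr8:94172368-94172617, plus strand: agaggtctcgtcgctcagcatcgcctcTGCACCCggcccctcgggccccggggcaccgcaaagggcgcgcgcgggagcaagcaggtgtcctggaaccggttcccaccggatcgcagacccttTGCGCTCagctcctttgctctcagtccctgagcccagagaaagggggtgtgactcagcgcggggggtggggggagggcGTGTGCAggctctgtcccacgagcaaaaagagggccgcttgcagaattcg
The Mt1 window held 1 match, beginning 23 bases before the start site, and the Mt2 window held 3, beginning 223, 128 and 50 bases before it. These counts depend on where the RefSeq start site lies. Cores outside the printed windows were not counted, so the counts do not compare the whole promoters of the 2 genes. The core was found in 6 of 11 windows of the metallothionein and zinc list (54.5%) and in 21.4% of all RefSeq windows of the same length. The looser core TGCNCNC, which contains the stricter letters, was found in 63.6% of the list's windows and 44.4% of all.

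Iron and antioxidant genes followed in part. Of 17 measured genes of iron and heme, 3 were higher and 0 lower, while the list's median of 0.13 turned to -0.015 with TPM over loci longer than 200 bases. The ferritin heavy chain Fth1 (chr19:9980600-9985111) stood at 915, 1061 and 2235 FPKM (log2 ratio 1.29). The ferritin light chain Ftl1 (chr7:45457944-45459886) stood at 919, 1014 and 2290.5 FPKM (log2 ratio 1.32) and holds a small RNA gene. The biliverdin reductase gene Blvrb stood at 8.25, 14.4 and 28.1 FPKM (log2 ratio 1.65). Transferrin receptor Tfrc, which imports iron, stood at 93.6, 79.8 and 54.2 FPKM (log2 ratio -0.78). Heme oxygenase Hmox1 stood at 44.8, 46.6 and 82.5 FPKM (log2 ratio 0.87). Neither Tfrc nor Hmox1 passed the rule. Of 40 genes of the NRF2 and glutathione list, 5 were higher and 0 lower, with 30 ratios above 0 and a median of 0.45. Beside Mgst2, the higher ones were the glutathione transferases Gstm1 and Gsta4, mitochondrial superoxide dismutase Sod2 and secreted glutathione peroxidase Gpx3. Gstm1 stood at 26.4, 35.3 and 59.7 FPKM. Sod2 stood at 37.2, 47.6 and 77.9 FPKM. The classical NRF2 target Nqo1 stood at 9.62, 11.8 and 14.6 FPKM and did not pass the rule. The glutathione synthesis gene Gclc, at 10.9, 7.28 and 17.7 FPKM, was lowest in conditioned medium alone and did not pass it either.

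Resveratrol is reported to act on the aryl hydrocarbon receptor and on sirtuins, and genes linked to both were listed. Of 10 listed aryl hydrocarbon receptor targets, 6 passed the filter on low values and 5 of these had ratios above 0, with a median of 0.50, 0 higher and 1 lower by the rule. Cyp1a1, the classical target, stood below the filter at 0, 0.0222 and 0.0211 FPKM. Cyp1b1 (chr17:79706953-79715087), also a target, was lower at 25.4, 30.4 and 5.34 FPKM (log2 ratio -2.06), with the resveratrol library far below both others. Tiparp, a target that feeds back on the receptor, stood at 17.2, 22.6 and 26.6 FPKM (log2 ratio 0.60). Of 23 genes of sirtuins, PGC-1 and mitochondrial biogenesis, 0 were higher and 1 lower (4.35%, beside 4.86% of all single-symbol genes), the coactivator gene Pprc1 at 13.1, 5.49 and 5.00 FPKM (log2 ratio -1.23), and the median was 0.16. Sirt1, a deacetylase, stood at 8.72, 7.48 and 18.4 FPKM (log2 ratio 0.99), just under the rule. Ppargc1a, which encodes PGC-1α, was below the filter at 0.642, 1.20 and 0.347 FPKM.

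Cytokine signalling genes were among those with the highest ratios. Of 22 measured JAK-STAT3 genes, 9 were higher and 2 lower, with 18 ratios above 0 and a median of 0.69. Socs3, the feedback inhibitor of IL-6 family receptors (chr11:117966087-117969991), stood at 12.7, 22.7 and 68.8 FPKM (log2 ratio 2.35). The kinase gene Pim1 (chr17:29490768-29496112) stood at 6.02, 14.7 and 32.7 FPKM (log2 ratio 2.26). The transcription factor gene Cebpd (chr16:15887232-16146851) stood at 9.72, 22.8 and 41.0 FPKM (log2 ratio 1.97). Control was lowest and resveratrol highest in these 3 genes. The cytokine Il6 itself stood at 5.72, 11.5 and 18.6 FPKM (log2 ratio 1.54). The IL-4 receptor chain Il4ra stood at 11.1, 21 and 40.4 FPKM. The oncostatin M receptor Osmr stood at 21.1, 31.9 and 55.3 FPKM. Ligand and receptors here had the order seen for Socs3. Stat3 stood at 43.2, 59.5 and 66.8 FPKM and did not pass the rule. Serpina3n, Cebpb and the kinase gene Pim3 were also on the higher side of this list. Serpina3n, at 0 in control, passed the filter through the other libraries, so the JAK-STAT3 counts describe and do not support. Of the lower members, the IL-6 family cytokine gene Lif stood at 8.88, 8.2 and 2.22 FPKM.

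NF-κB, chemokine and acute phase lists were on the same side. Of 26 measured genes of NF-κB, cytokines and adhesion, 5 were higher and 1 lower, with a median of 0.30. In conditioned medium alone the median of this list against control was 0.41. Resveratrol was the highest of the 3 libraries in 7 members and the lowest in 9. Cyclooxygenase 2, Ptgs2 (chr1:150099939-150108235), stood at 26.4, 32.6 and 113 FPKM (log2 ratio 2.05). The NF-κB inhibitor gene Nfkbia stood at 21.6, 41.9 and 65.3 FPKM (log2 ratio 1.56). Lcn2, given above, and Nfkbiz were also higher, and the receptor gene Il1rl1 was lower. Lcn2, near 0 in control, passed the filter through the other libraries, so the NF-κB counts describe and do not support. The inducible nitric oxide synthase Nos2 stood at 15.7, 94.2 and 49.5 FPKM (log2 ratio 1.6), and here conditioned medium alone was the highest. The adhesion gene Icam1, at 0.131, 4.10 and 0.631 FPKM, had the same shape and did not pass the rule. Of 16 measured chemokines, 6 were higher and 0 lower, with a median of 0.63. Beside Ccl5 and Cxcl1, they were the monocyte chemokines Ccl7 and Ccl8, and Cxcl16 and Ccl17. Ccl7 stood at 43.5, 56.2 and 133 FPKM. Ccl17 was listed at 0 in control, at 0.516 FPKM in conditioned medium and at 2.89 FPKM with resveratrol. It passed the filter through the resveratrol library, so the chemokine counts describe and do not support. Cxcl10, an interferon-induced chemokine, stood at 177, 109 and 131 FPKM and did not pass the rule. Of 24 listed complement and acute phase genes, 11 passed the filter, and of these 6 were higher and 0 lower, with a median of 1.13. A member passes the filter more readily when it is high in a library, so these counts over measured members describe and do not support. Beside Serpina3n and Lcn2, the higher genes were the central complement component C3, the acute phase genes Saa3 and Lbp, and complement factor B, Cfb. Saa3 stood at 1.49, 4.40 and 6.67 FPKM. Cfb, whose span holds a small RNA gene, stood at 38.2, 51.1 and 85.3 FPKM. Summed FPKM of the 16 leukocyte markers was 9.93, 23.1 and 14.4, with Ptprc at 0 throughout. Of these, Cd74 alone stood at 2.67, 14.1 and 7.73 FPKM, and 13 of the 16 were below 1 FPKM in each library.

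Interferon-stimulated genes went the other way. Of 39 measured, 12 were lower and 0 higher, 35 had ratios below 0, and the median was -0.74. The resveratrol library was the lowest of the 3 in 34 of them. The immunity-related GTPase Irgm1 (chr11:48865249-48872113) stood at 138, 80.1 and 31.6 FPKM (log2 ratio -2.09). The oligoadenylate synthetase Oas2 (chr5:120730303-120750030) stood at 84.2, 42.1 and 22.8 FPKM (log2 ratio -1.84). Parp14, a mono-ADP-ribosyltransferase, stood at 29.9, 21.9 and 8.82 FPKM (log2 ratio -1.65). Control was highest in all 3, conditioned medium lower and resveratrol lowest. Samd9l stood at 52.0, 39.6 and 16.4 FPKM. Ifi44 stood at 186, 102 and 63.2 FPKM. Oas3, a further oligoadenylate synthetase, stood at 17.7, 17.0 and 5.95 FPKM. Irgm1 and Oas3 are the interferon genes with the lowest ratios that have a RefSeq start site with GAAANNGAA in the 120 bases before it. GAAANNGAA is a core of the interferon-stimulated response element. Only windows with these letters were taken, and that of Irgm1 lies inside the gene's listed span. The windows are printed to show how the letters overlap, in capitals.
Irgm1, chr11:48871421-48871540, minus strand: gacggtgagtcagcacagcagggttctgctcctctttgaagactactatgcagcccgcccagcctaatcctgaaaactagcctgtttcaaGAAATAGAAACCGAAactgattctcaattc
Oas3, chr5:120777660-120777779, minus strand: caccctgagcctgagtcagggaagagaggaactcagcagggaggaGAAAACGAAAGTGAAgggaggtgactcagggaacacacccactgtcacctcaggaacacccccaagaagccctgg
Irgm1 held 2 overlapping matches, beginning 30 and 24 bases before the start site, and Oas3 held 2, beginning 75 and 69 bases before it. Over 250 bases and both strands, 16 of 37 windows of interferon-stimulated genes held the letters (43.2%), as did 7.13% of all RefSeq windows. MHC class I and antigen processing genes, many of which interferon also induces, were not on the lower side. Of 12 measured, 4 were higher and 0 lower, with a median of 0.44. The class I gene H2-K1 stood at 271, 343 and 597 FPKM (log2 ratio 1.14). H2-Q4, also of class I, stood at 87.4, 135 and 226 FPKM (log2 ratio 1.36). Near-identical class I copies can share reads. The immunoproteasome subunit Psmb9 stood at 6.35, 18.8 and 19.2 FPKM. Cd74, the class II invariant chain and a leukocyte marker, stood at 2.67, 14.1 and 7.73 FPKM and holds a small RNA gene.

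The lists of energy metabolism are to be read against the 3.43% higher and 4.86% lower of all single-symbol genes. Of 31 glycolysis and lactate genes, 2 were higher (6.45%) and 0 lower, with a median of 0.18, and beside Txnip the other was the lactate transporter Slc16a1 at 28.2, 48.8 and 83.6 FPKM (log2 ratio 1.53). The lactate exporter Slc16a3 stood at 56.8, 76.0 and 29.9 FPKM (log2 ratio -0.91) and did not pass the rule. Lactate dehydrogenase Ldha, at 829, 822 and 666 FPKM, was likewise lowest with resveratrol without passing it. Of 23 hypoxia genes, 3 were higher (13.0%) and 1 lower (4.35%), with a median of 0.13 that turned to -0.015 with TPM over loci longer than 200 bases. The higher ones were Nos2, Selenbp1 and the oxidative folding enzyme Ero1l, which stood at 100.0, 185 and 221 FPKM. The lower one was Ankrd37 at 19.2, 12.8 and 6.13 FPKM. Of 53 respiratory chain genes, 1 passed the rule, the cytochrome oxidase subunit Cox8b at 13.0, 27.2 and 27.2 FPKM, and the median of 0.12 turned to -0.032 with TPM over loci longer than 200 bases. Of 24 genes of fatty acid oxidation and PPAR targets, 1 was higher, the dehydrogenase Hadh at 25.7, 39.4 and 62.8 FPKM, and the median was 0.24. Of 32 genes of cholesterol and fatty acid synthesis, 26 had ratios below 0, with 2 higher, 1 lower and a median of -0.21. The sterol sensor gene Insig1 stood at 79.1, 59.6 and 168 FPKM. The other higher gene was the sterol exporter Abca1 at 0.744, 1.72 and 2.82 FPKM.

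Growth-related lists pointed in different directions. Of 42 ribosome assembly and growth genes, 33 had ratios below 0, 4 were lower (9.52%) and 1 higher (2.38%), with a median of -0.57. Spermidine synthase, Srm (chr4:148591513-148594619), stood at 51.0, 17.1 and 13.2 FPKM (log2 ratio -1.87). The nucleolar pseudouridine synthase Dkc1, with a small RNA gene inside it, stood at 21.1, 9.53 and 8.18 FPKM. Noc2l, a nucleolar protein gene, stood at 31.2, 18.5 and 13.1 FPKM. In Srm, Dkc1 and Noc2l conditioned medium alone was already low. Ornithine decarboxylase, Odc1, the enzyme that precedes Srm in polyamine synthesis and holds a small RNA gene, was higher at 79.4, 147 and 166 FPKM (log2 ratio 1.05). The 60 measured ribosomal protein genes all had ratios above 0, from 0.14 for Rpl27 to 0.62 for Rpl22, with a median of 0.36 that stayed above 0 in each scaling tried, and 0 passed the rule. Of 29 genes of IGF, AKT and mTOR signalling, 3 were lower (10.3%) and 1 higher (3.45%), with a median of 0.16. The shares of all single-symbol genes were 4.86% and 3.43%. The growth factor Igf1 (chr10:87859056-87937047) stood at 8.81, 7.65 and 2.01 FPKM (log2 ratio -1.71). The adaptor Irs1 (chr1:82233105-82291468) stood at 29.4, 34.2 and 8.90 FPKM (log2 ratio -1.62). The binding protein Igfbp5 stood at 124, 149 and 57.1 FPKM (log2 ratio -1.11). In Igf1, Irs1 and Igfbp5 the resveratrol library alone was low. The related adaptor Irs2 was higher at 2.54, 2.75 and 6.58 FPKM (log2 ratio 1.1).

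Among 35 genes of TGF-β, activin and BMP signalling, 4 were higher and 3 lower, with a median of -0.11 that turned to 0.078 with TPM over all loci and to 0.03 without shared loci. The activin A subunit Inhba (chr13:16012139-16031608) stood at 39.0, 33.7 and 8.24 FPKM (log2 ratio -2.12). The ligand Tgfb2 stood at 12.0, 11.2 and 4.35 FPKM. The BMP antagonist Grem1 stood at 92.4, 46.6 and 41.5 FPKM. Inhba and Tgfb2 were near control in conditioned medium alone, and Grem1 was not. Of the higher genes, the coreceptor Tgfbr3 stood at 3.96, 5.39 and 10.7 FPKM. Id1, a BMP target like Id3, stood at 16.3, 13.6 and 31.6 FPKM, just under the rule. Of 32 immediate early genes and MAP kinase phosphatases, 5 were higher and 4 lower, with a median of 0.26. Fos, of the AP-1 complex, stood at 2.60, 3.18 and 11.5 FPKM. Its partner Junb stood at 103, 127 and 259 FPKM. Both were highest with resveratrol. The AP-1 gene Fosl1 was lower, at 11.2, 9.61 and 3.5 FPKM. The early growth response gene Egr3 was also lower, at 16.8, 3.95 and 3.32 FPKM. Of 16 clock genes, 1 was higher (6.25%, beside 3.43% of all single-symbol genes), with a median of 0.45. It was the repressor Cry2 at 4.07, 5.55 and 9.57 FPKM. Of 34 p53 targets and apoptosis genes, 3 were higher (8.82%) and 1 lower (2.94%, beside 4.86% of all single-symbol genes). The median of 0.0073 turned to -0.14 with TPM over loci longer than 200 bases. The BH3-only death gene Bcl2l11, BIM, stood at 3.38, 6.98 and 14.8 FPKM (log2 ratio 1.85). The growth arrest gene Gadd45a stood at 115, 132 and 309 FPKM. Its relative Gadd45b stood at 36.3, 58.2 and 118 FPKM. In these 3 genes control was lowest and resveratrol highest. Bid, also a BH3-only gene, was lower at 30.9, 21.3 and 8.55 FPKM (log2 ratio -1.74).

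**Figure D4:**
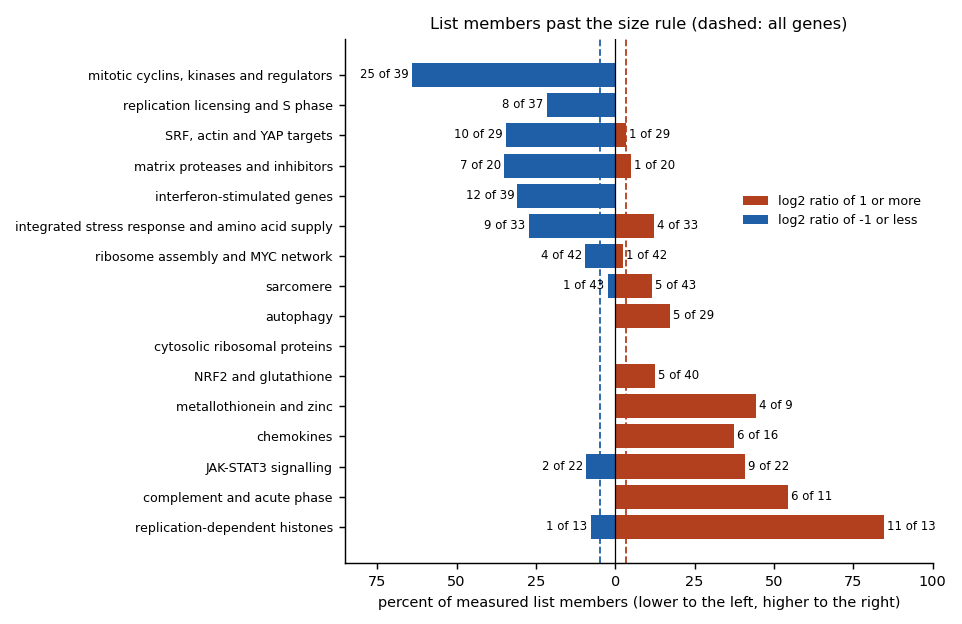
Percent of the measured members of 16 lists with a log2 ratio of 1 or more (red, right) and of -1 or less (blue, left), resveratrol library over control library, with counts at the bars; dashed lines are the percent of all single-symbol genes (3.43 higher, 4.86 lower). Mitotic genes reach 64.1% lower, and ribosomal protein genes have 0 past the rule in either direction.

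Lists of actin cytoskeleton and matrix genes had medians below 0. Of 29 measured targets of SRF, actin and YAP signalling, 10 were lower (34.5%) and 1 higher (3.45%). Ratios were below 0 in 25, and the median was -0.70. Beside Wisp1, filamin A, Flna, which crosslinks actin (chrX:74223290-74257893), stood at 274, 161 and 76.2 FPKM (log2 ratio -1.84). Smooth muscle gamma actin, Actg2 (chr6:83512909-83536251), stood at 92.3, 31.3 and 24.1 FPKM (log2 ratio -1.90). Calponin, Cnn1, stood at 4.25, 0.940 and 0.847 FPKM and shares its span with other loci. Control was highest in Wisp1, Flna, Actg2 and Cnn1, and conditioned medium alone was below it. Actb, cytoplasmic beta actin, which was named after its values were seen because it is often used as a reference gene, stood at 1113, 748 and 489 FPKM (log2 ratio -1.19). The exception past the rule was the muscle ankyrin repeat gene Ankrd2, at 19.1, 20.7 and 41.2 FPKM. The CArG box, the element bound by SRF, was found in 18.2% of promoter windows of this list, in 14.9% of those of the sarcomere list, whose members were mostly on the higher side, and in 1.47% of all windows.

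Of 20 measured matrix proteases and inhibitors, 7 were lower (35.0%) and 1 higher (5.0%), with a median of -0.61. Beside Plau, its receptor Plaur stood at 12.3, 10.2 and 3.04 FPKM (log2 ratio -1.71). The shedding protease Adam12, with a small RNA gene inside it, stood at 16.1, 10.8 and 3.88 FPKM (log2 ratio -1.81). The proteoglycan-cleaving Adamts1 stood at 18.1, 18.0 and 6.08 FPKM (log2 ratio -1.43). In Plau, Plaur and Adamts1 the conditioned medium library lay closer to control than to resveratrol. The 1 higher member was Mmp11, given above. Of 41 collagens and matrix glycoproteins, 6 were lower (14.6%) and 2 higher (4.88%), with 28 ratios below 0 and a median of -0.32. The elastic fibre gene Fbln5 stood at 29.5, 24.0 and 9.21 FPKM. The crosslinking enzyme gene Loxl1 stood at 72.5, 45.9 and 25.1 FPKM. Thrombospondin 1, Thbs1 (chr2:118111749-118127133), stood at 721, 448 and 268 FPKM (log2 ratio -1.42). All 3 of these went down from control to conditioned medium to resveratrol, and Tnc, Col12a1 and Col5a3 were also lower by the rule. Col1a1, the main fibrillar collagen and a fibroblast marker, stood at 899, 1056 and 527 FPKM (log2 ratio -0.77) and did not pass the rule. The higher ones were Prg4 and Spp1, osteopontin, at 1468, 1528 and 3097 FPKM. Summed FPKM of the fibroblast markers with a locus was 2540, 3450 and 2446, and their part in the matrix values was not tested.

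The ratios were related to transcript length. Of the 11211 genes, 10825 (96.6%) had a GENCODE M21 transcript, and they were divided into 8 bins by the length of the longest one. In the bin of the shortest transcripts, from 76 to 1573 bases, 7.81% of genes were higher and 4.42% lower, with a median log2 ratio of 0.14. In the bin of the longest, from 6359 to 123179 bases, 1.41% were higher and 5.18% lower, with a median of -0.087. Across genes, which are not independent replicates and share the library and its depth, Spearman's rank correlation between ratio and length was -0.11. The ribosomal proteins, metallothioneins, ferritins, chemokines and histones are short genes, whereas titin and filamin A are long. Without the ribosomal proteins the median of the shortest bin was 0.13. With ratios centred within each bin, 337 of the 10825 genes had a ratio of 1 or more and 518 a ratio of -1 or less. GC content and mean level showed weaker relations, with rank correlations of -0.034 and 0.012. The labels give no RNA quality of these libraries, and its part in the length relation was not tested.

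**Figure D5:**
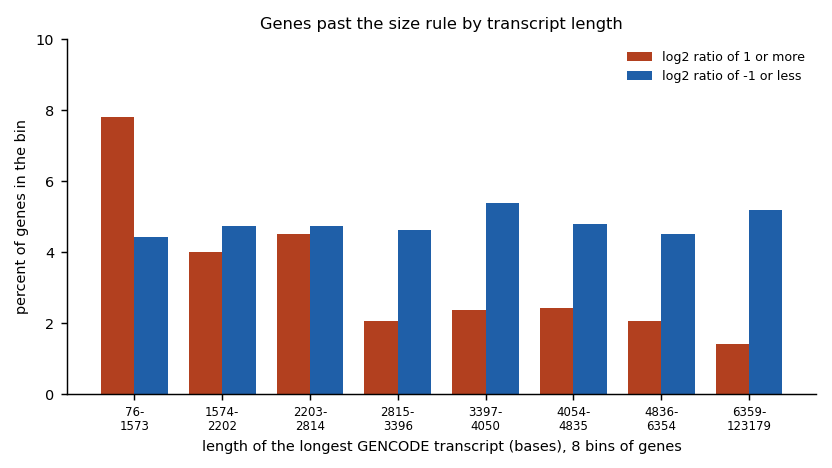
Percent of genes with a log2 ratio of 1 or more (red) and of -1 or less (blue), resveratrol library over control library, in 8 bins by length in bases of the longest GENCODE transcript. The share of higher genes goes from 7.81% in the shortest bin to 1.41% in the longest, while the share of lower genes stays between 4.42% and 5.4%.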

How the data were processed

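Gene expression values were those deposited in 1 table of the series, in which the authors give FPKM (fragments scaled by transcript length and library size) for 3 pairs of libraries. Per the submitters' processing notes, the tools were Cuffdiff 2.2.1.3, Cufflinks 2.2.1.0, TopHat2 2.1.0 with Bowtie, Trim Galore 0.4.3.1 and FastQC 0.69, and the build was mm10. Annotation, strand setting and library scaling stay unknown, being not given in the sources used here. Other columns of the table were used only for symbols, spans and an alternative that keeps the loci the authors tested.

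From the FPKM, the log2 ratio of FPKM + 1 was computed for loci with a mean of 1 or more over the 3 libraries. Some genes that the rule names are not reported here. Starts were converted to 1-based coordinates. The text names the 15 highest and 15 lowest genes, up to 5 genes of each list by absolute ratio, and a fixed set of names. The following were named outside this rule, after their values were seen: Actb, Adgre1, Adipoq, Ankrd2, Atf4, C3, Cebpb, Cldn18, Cldn7, Col12a1, Col5a3, Cxcl10, Cxcl16, Fabp4, Hist2h4, Il1rl1, Krt18, Lif, Mir1966, Nrap, Oas3, Osmr, Phgdh, Pim3, Ppp1r15a, Psph, Ptprc, Rab42, Rpl27, S100a4, Shmt2, Spp1, Wfdc17, and the genes just inside or outside a threshold. The gene lists (48 lists, 1284 genes, 1121 measured) and the comparison were chosen with earlier results of these data known. Transcript lengths came from GENCODE and promoter sequences from RefSeq on GRCm38.p6. The script that applies the size rule was tested on simulated data, which says nothing about replicate error. Depth is unknown, so counting error cannot be given. Python 3.11.15, pandas 2.3.3, numpy 2.4.6 and matplotlib 3.10.9 were used.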

Additional observations from a re-analysis of the deposited data

How the results depend on the processing

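No paired analysis was possible because each group holds 1 library, and for the same reason no library could be left out. As reported, 427 loci were higher and 622 lower. With 5 added to FPKM in place of 1 these counts were 161 and 229, with a mean FPKM of 5 or more 283 loci were higher, and after rescaling to TPM over all loci 669 were higher. The other counts stayed within 1.5 times of those reported: with 0.1 added 631 and 888, with no filter 455 and 637, and with TPM over loci longer than 200 bases 288 and 829. Centring within 8 bins of transcript length, an alternative chosen after seeing the data, gave 337 and 518. The cause of these moves was not tested, although a larger added value shrinks every ratio and a higher filter leaves fewer loci. Of 257 named genes that were measured, 180 kept their side of the size rule in every setting in which they had a value, and 0 past the rule turned direction in any. Of the list medians, 35 kept their sign in every setting and 11 turned in at least 1. Beside the lists named above with their values, the adipocyte marker median turned to -0.057 with TPM over loci longer than 200 bases, the leukocyte marker median turned with no filter, and the fibroblast marker median turned with both filter settings, with TPM over all loci and with tested loci only. FPKM carries no depth, and the share of FPKM in loci of 200 bases or less was 83.0%, 79.3% and 78.4% in control, conditioned medium and resveratrol, so the scale depends on how such loci are treated.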

Other observations

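A few abundant transcripts changed place in the order of levels. Among single-symbol genes longer than 200 bases, ordered by FPKM, Mt2 ranked 117 in control, 78 in conditioned medium and 7 with resveratrol, and Mt1 ranked 140, 124 and 29. Fth1 ranked 75, 63 and 19, Ftl1 74, 71 and 16, and Spp1 25, 26 and 8. In the other direction, S100a4, a calcium-binding protein of motile cells, ranked 18, 35 and 105, and Actb 50, 101 and 157. The metallothionein pair Mt1 and Mt2 held 0.197%, 0.260% and 0.798% of all FPKM in loci longer than 200 bases, and the ferritin pair Fth1 and Ftl1 held 0.319%, 0.339% and 0.708%. For each pair the conditioned medium library lay nearer to control than to resveratrol.

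Among loci that passed the filter on low values, few were listed at 0 in 1 of the libraries and at 1 FPKM or more in the other. At 0 in control and at 1 FPKM or more with resveratrol were 12 loci. Of these, 5 were single-symbol genes other than predicted models and small RNA genes: Serpina3n, Hist1h4j, Ccl17, Wfdc17 and Rab42. At 0 with resveratrol and at 1 FPKM or more in control were 13 loci, of which 0 were genes of that kind. The depth is unknown, so a value of 0 gives no limit on the level.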
